A study of Drosophila melanogaster with 15 samples.

Results

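The piRNA pathway of *Drosophila* germ cells uses a set of factors beyond the Vasa, Aub, AGO3, Qin and Tej proteins. For 9 of these factors, *spn-E*, *krimp*, *squ*, *tud*, *rhi*, *del*, *cuff*, *csul* and *vls*, the mRNA level was followed in cultured ovarian somatic cells (OSCs) in which L(3)mbt or Lint-O had been depleted. The 9 genes were taken by their symbols from the 16727 genes listed in the count table, and all 9 were among the 8726 genes with enough counts to be tested. OSCs are a cultured line of somatic cells of the fly ovary, and in this line the study describes a *springer* retrotransposon inserted in *l(3)mbt*, a feature that every condition shares. Cells were treated for 48 h with siRNA against EGFP (control), *l(3)mbt* (L(3)mbt KD) or *lint-O* (Lint-O KD), and poly-A selected RNA was sequenced in 3 libraries per condition, 9 in all. The study prepared the samples in triplicate and calls the 3 values of each condition biological replicates, without saying how the cultures were kept apart, and p-values measure the spread between these libraries. All 9 mRNAs were present in control OSCs, and in neither knockdown did any of them differ from control by as much as 2-fold. The mRNAs of *cuff* and *rhi* rose in both knockdowns, *cuff* by 1.85-fold and 1.89-fold and *rhi* by 1.37-fold and 1.41-fold in L(3)mbt KD and Lint-O KD. The mRNAs of *tud* and *csul* fell in L(3)mbt KD, to 81.5% and 82.4% of control, and *tud* was also lower in L(3)mbt KD than in Lint-O KD.

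In germ cells, the nuage is a granular zone around the nucleus where transposon transcripts are sliced and piRNAs are amplified in the ping-pong cycle. Many nuage proteins carry Tudor domains, which bind methylated arginines on PIWI proteins, and those arginines are methylated by the Csul methyltransferase with its cofactor Vls. In the germ cell nucleus, Rhino, Deadlock and Cutoff form a complex on piRNA clusters marked by H3K9 methylation, where they allow both strands to be transcribed and keep the transcripts unspliced. Somatic cells of the ovary load piRNAs on Piwi alone and do not run the ping-pong cycle.

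The libraries held between 19139572 and 32274601 reads counted on genes. A count of 3, taken as the detection floor, corresponds to at most 0.157 CPM (counts relative to the TMM-scaled library size), and this floor covers counting error only. The lowest count of any of the 9 genes in any library was 184, so all 9 lay far above the floor. The mRNA of *l(3)mbt* was at 55.6% of control in L(3)mbt KD and that of *lint-O* (listed as CG2662) at 16.9% in Lint-O KD, while *l(3)mbt* mRNA was at 133% of control in Lint-O KD. In western blots of the study, Lint-O protein was hardly seen after L(3)mbt depletion, and L(3)mbt protein changed little after Lint-O depletion. A difference between the knockdowns is thus not one between loss of L(3)mbt alone and loss of Lint-O alone. The summed level of 8 markers of ovarian somatic cells lay between 2950 and 3269 CPM in all 9 libraries, with *piwi* at 1447 CPM of the control mean of 3073. Of these 8, *Fas3* and *shg* were upregulated in L(3)mbt KD (0.89 and 0.62 on the log2 scale), and in Lint-O KD *shg* was upregulated (0.56) and *fax* downregulated (-0.33). The summed level of 8 germ cell markers was 27.4 to 28.0 CPM in control, 102 to 112 after L(3)mbt KD and 49.2 to 53.3 after Lint-O KD. A large part came from single genes, *gcl* in control (mean 14.1 CPM) and *bgcn* in L(3)mbt KD (mean 55.7 CPM). Of the 7 germ cell markers tested, *bam*, *bgcn*, *nos*, *orb* and *zpg* were upregulated in each knockdown. Among all genes tested, 22.1% were upregulated in L(3)mbt KD and 16.1% in Lint-O KD. The other tested germ cell markers, *osk* and *gcl*, passed in neither knockdown and had log2 fold changes below 0. These were -0.22 and -0.40 for *osk* and -0.20 and -0.29 for *gcl*, with L(3)mbt KD first. The 5 hemocyte markers summed to 23.0 to 29.7 CPM over all libraries, with *He* at or under 3 counts in each of them. Among these, *Pxn* rose in both knockdowns (0.91 and 0.70 on the log2 scale) and *srp* fell by 0.44 in L(3)mbt KD. The 4 neuronal markers summed to 65.4 to 114 CPM in control, 69.2 to 72.6 CPM in L(3)mbt KD and 76.4 to 93.6 CPM in Lint-O KD, nearly all from *elav* (94.6 CPM in control), and the 2 of them tested did not pass in either knockdown. The part of these markers in the changes of the 9 genes was not tested. Reads assigned to no feature made up 2.76% to 8.45% of the reads listed in control, 2.93% to 4.14% after L(3)mbt KD and 4.43% to 7.38% after Lint-O KD. As these are bulk libraries, a change in the number of expressing cells and a change in RNA per cell cannot be told apart.

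Levels of different genes were compared as RPKM, which divides the CPM by the length of the exons in kilobases. In control OSCs, the mean level ranged from 98.8 ± 2.83 RPKM (SD, n = 3) for *spn-E* down to 6.63 ± 0.340 RPKM for *rhi*. Between these, *krimp* was at 72.5 RPKM, *del* at 54.2, *vls* at 53.3, *csul* at 30.6, *squ* at 30.3, *tud* at 18.8 and *cuff* at 7.47. Only 3 pairs of neighbours in this order had ranges that overlapped, *del* and *vls*, *csul* and *squ*, and *cuff* and *rhi*. The median of the 8683 tested genes with an exon length was 16.4 RPKM, so that 7 of the 9 genes were above the median gene and only *cuff* and *rhi* below it. *spn-E* exceeded 89.7% of these genes, *krimp* 85.7%, *del* 81.0%, *vls* 80.7% and *rhi* 31.7%. After L(3)mbt depletion, *vls* at 59.4 RPKM stood above *del* at 44.7 without overlap, and *cuff* at 13.9 RPKM (12.7 to 14.7) reached the range of *tud* at 15.3 (14.4 to 16.8). In Lint-O KD no neighbours in the order overlapped, with *tud* at 20.2 RPKM, *cuff* at 14.2 and *rhi* at 9.35. The share of genes exceeded by *cuff* was 33.8% in control, 45.2% in L(3)mbt KD and 45.0% in Lint-O KD.

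The most abundant mRNA of each functional group was that of *spn-E* for the nuage, *del* for the Rhino complex and *vls* for the arginine methyltransferase, and the sequence around the annotated start of each is given. Each window runs 5′ to 3′ on the gene's own strand, from 250 bases before to 50 bases after the annotated start, and was read from the RefSeq genome of Release 6, which is dm6. Capitals mark matches to the motifs searched on both strands, TATCGATA (the DRE core promoter motif), GGTCACAC (Motif 1), CAGCTG (an E-box) and TTTGAA (the CHR motif, TTCAAA on the other strand), and no match overlapped another. The windows are chr3R:15837169-15837468 on the plus strand for *spn-E*, chr2L:21148497-21148796 on the minus strand for *del* and chr2L:20065630-20065929 on the minus strand for *vls*.
spn-E: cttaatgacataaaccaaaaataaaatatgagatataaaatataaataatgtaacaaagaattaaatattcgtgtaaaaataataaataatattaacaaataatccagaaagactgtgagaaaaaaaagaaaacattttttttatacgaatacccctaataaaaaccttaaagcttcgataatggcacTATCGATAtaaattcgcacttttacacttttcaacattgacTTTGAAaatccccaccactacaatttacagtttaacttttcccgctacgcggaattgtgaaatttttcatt
del: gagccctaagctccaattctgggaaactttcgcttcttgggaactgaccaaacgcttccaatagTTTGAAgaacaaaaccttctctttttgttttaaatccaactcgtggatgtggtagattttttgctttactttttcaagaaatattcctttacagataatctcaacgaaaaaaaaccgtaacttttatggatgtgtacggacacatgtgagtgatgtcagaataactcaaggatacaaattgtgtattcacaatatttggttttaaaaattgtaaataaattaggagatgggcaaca
vls: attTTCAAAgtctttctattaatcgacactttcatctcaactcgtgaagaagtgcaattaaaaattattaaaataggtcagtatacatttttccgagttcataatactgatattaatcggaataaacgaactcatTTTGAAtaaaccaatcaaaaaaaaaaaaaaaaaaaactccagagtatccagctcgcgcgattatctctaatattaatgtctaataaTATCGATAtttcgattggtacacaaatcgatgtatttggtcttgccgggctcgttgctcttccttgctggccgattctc
The DRE letters began 62 bases before the start of *spn-E* and 29 bases before that of *vls*, and were in the windows of none of the other 7 genes. They were in 9.36% of the 13968 promoter windows of protein-coding genes. TTTGAA was in the windows of 6 of the 9 genes, *spn-E*, *krimp*, *del*, *cuff*, *csul* and *vls*, and in 40.7% of all windows. GGTCACAC was at position 31 of *csul* (7.69% of all windows), and CAGCTG was in none of the 9 (17.6% of all windows). The windows of *squ*, *tud* and *rhi* held none of these letters. The group with a TTTGAA match held *cuff*, which rose, *csul*, which fell, and *spn-E*, which passed the threshold in no comparison.

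**Figure D1:**
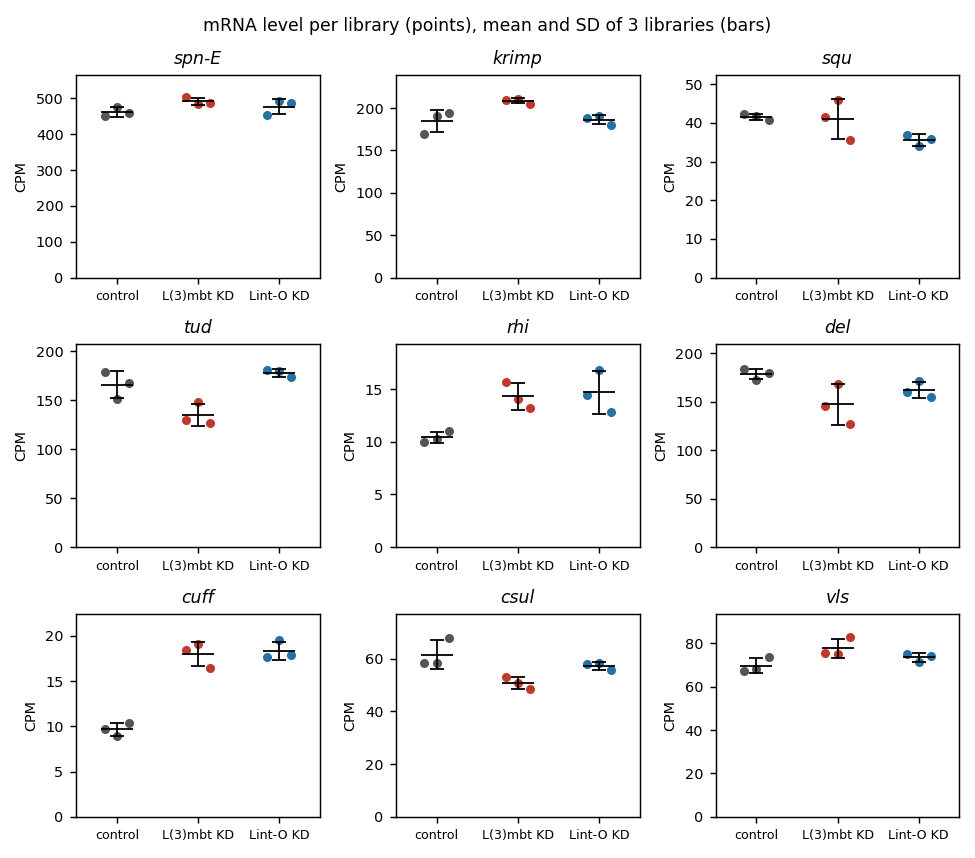
mRNA level of the 9 genes in each library, in TMM-scaled CPM on an axis from 0, for control, L(3)mbt KD and Lint-O KD. Points are libraries, the horizontal bar is the mean and the vertical bar the SD of 3 libraries. The 6 knockdown libraries of *cuff* lie between 16.5 and 19.5 CPM, all above the control libraries at 8.96 to 10.4 CPM.

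The changes were tested with edgeR's quasi-likelihood test on all 9 libraries, with p-values adjusted over the 8726 genes by the Benjamini-Hochberg method and a threshold of 0.01. In L(3)mbt KD against control, 2 of the 9 genes were upregulated and 2 downregulated, and 5 did not pass. Among all genes tested, 22.1% were upregulated and 14.9% downregulated in this comparison, so that the counts for the 9 genes were near the background. In Lint-O KD against control, 2 of the 9 were upregulated and 0 downregulated, against 16.1% and 6.85% of all genes. The count of 0 came from edgeR, DESeq2 also gave 0, and 1 gene (*squ*) was lower at an unadjusted p under 0.05. Between the knockdowns, 0 were higher and 1 was lower in L(3)mbt KD than in Lint-O KD, against 8.42% and 5.6% of all genes. Here DESeq2 also gave 0 higher, and 2 genes (*krimp* and *squ*) were higher at an unadjusted p under 0.05. The 3 libraries of one condition lay wholly apart from the 3 of the other for 8, 5 and 4 of the 9 genes in these comparisons, in that order, against 56.9%, 47.1% and 42.4% of all genes tested. The median log2 fold change of the 9 genes was 0.09 in L(3)mbt KD and 0.05 in Lint-O KD against control, where the median over all genes was -0.02 and 0.01. Both knockdowns were compared with the same control libraries. An exact permutation test of 3 libraries against 3 cannot give a p below 0.1, so only the fit across all genes could pass a threshold here.

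**Figure D2:**
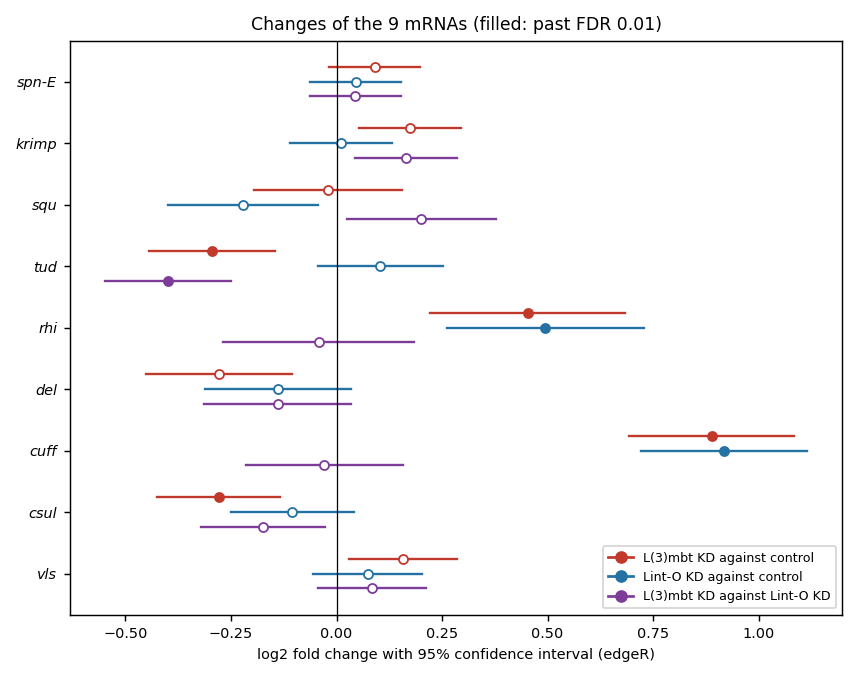
Log2 fold change of each of the 9 mRNAs (x axis) with its 95% confidence interval from edgeR, for either knockdown relative to control and for the knockdowns relative to each other. Filled points passed an adjusted p of 0.01, and show *cuff* and *rhi* to the right of 0 in both knockdowns and *tud* and *csul* to the left of 0 in L(3)mbt KD.

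Among the Rhino complex genes, the largest change was that of *cuff*, which encodes Cutoff, a protein related to RNA decapping enzymes that protects cluster transcripts from splicing and termination. Its level was 9.68, 8.96 and 10.4 CPM in control replicates 1, 2 and 3. It was 18.5, 19.1 and 16.5 CPM in L(3)mbt KD and 17.6, 19.5 and 17.9 CPM in Lint-O KD. Every knockdown library was higher than every control library, whereas the ranges of the 2 knockdowns overlapped. The log2 fold change was 0.89 ± 0.0911 (SE) in L(3)mbt KD (edgeR adjusted p = 1.28e-06) and 0.92 ± 0.0919 in Lint-O KD (edgeR adjusted p = 1.61e-06). The difference between the knockdowns was -0.03, with a 95% confidence interval from -0.22 to 0.16 on the log2 scale, so a difference of the size of either change lay outside it. The call of *cuff* passed in all 15 alternative analyses of each knockdown, including each library left out in turn.

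*rhi* encodes Rhino, the HP1 family protein that binds H3K9-methylated histones at piRNA clusters. Its level was 10.0, 10.2 and 11.0 CPM in control replicates 1 to 3, the lowest of the 9 genes per length of exon. It was 15.7, 14.0 and 13.2 CPM in L(3)mbt KD and 14.4, 16.9 and 12.8 CPM in Lint-O KD. Again every knockdown library was above every control library, but Lint-O KD replicate 2 stood above the other Lint-O KD libraries and the knockdown groups overlapped. The log2 fold change was 0.45 ± 0.108 in L(3)mbt KD (edgeR adjusted p = 0.00295) and 0.49 ± 0.109 in Lint-O KD (edgeR adjusted p = 0.00268). The adjusted p passed 0.01 in 11 of 15 alternatives for L(3)mbt KD and 12 of 15 for Lint-O KD. The call in L(3)mbt KD was lost without control replicate 1 (log2 fold change 0.40), control replicate 2 (0.42) or L(3)mbt KD replicate 1 (0.38), and with the share of reads assigned to no feature as a covariate (0.42, edgeR adjusted p = 0.0139). In Lint-O KD it was lost without control replicate 1 (0.45), control replicate 2 (0.46) or Lint-O KD replicate 2 (0.38). The log2 fold change stayed above 0 in all of these. Between the knockdowns it was -0.04, with a 95% confidence interval from -0.27 to 0.18.

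*del* encodes Deadlock, which bridges Rhino to the other proteins of the complex. Its mRNA did not rise with the mRNAs of its partners. Control replicates 1 to 3 were at 183, 172 and 179.6 CPM, the L(3)mbt KD libraries at 146, 169 and 127 CPM and the Lint-O KD libraries at 160.4, 171 and 155 CPM. All knockdown libraries were below all control libraries, with L(3)mbt KD replicate 2 and Lint-O KD replicate 2 closest to them. The log2 fold change was -0.28 ± 0.0807 in L(3)mbt KD, where the edgeR adjusted p of 0.0102 just missed the threshold. It passed in 5 of 15 alternatives, among them DESeq2 (adjusted p = 0.0035) and edgeR with robust estimation of the spread (adjusted p = 0.00746), the latter chosen after seeing the data. In Lint-O KD it was -0.14, with a 95% confidence interval from -0.31 to 0.03.

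Within a library, the levels of the 3 mRNAs of the complex thus stood in another ratio after either knockdown. The RPKM ratio of *del* to *rhi* was 7.77 to 8.75 in control, 4.43 to 5.73 after L(3)mbt KD and 4.84 to 5.77 after Lint-O KD. That of *del* to *cuff* was 6.81 to 7.57 in control, 3.04 to 3.48 after L(3)mbt KD and 3.40 to 3.58 after Lint-O KD. That of *cuff* to *rhi* was 1.06 to 1.17 in control, with a mean of 1.53 in either knockdown. In each of these ratios, every knockdown library lay on one side of all control libraries and the knockdown groups overlapped. These ratios are given as a description without a test of their own. The mean summed level of the germ cell markers was 27.8 CPM in control, 105.5 CPM in L(3)mbt KD and 51.3 CPM in Lint-O KD. Of these sums, *gcl* made up 14.1 CPM in control and *bgcn* 55.7 CPM in L(3)mbt KD. The part of the germ cell markers in the changes of *cuff* and *rhi* was not tested.

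**Figure D3:**
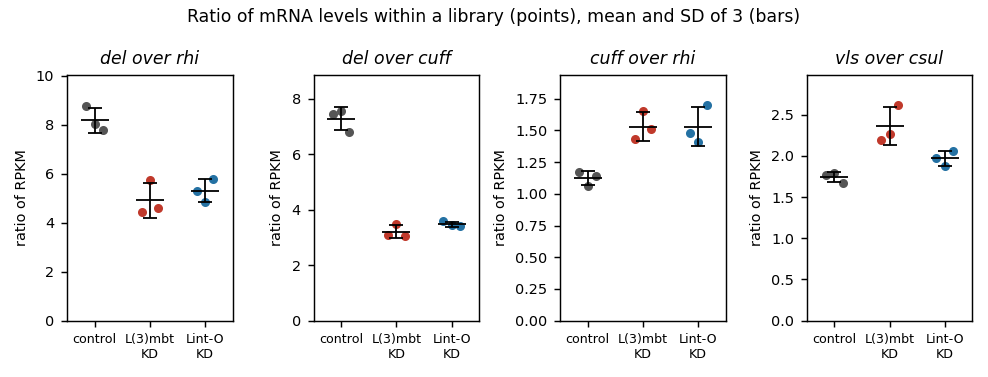
Ratios of RPKM between pairs of the genes within each library (y axis from 0), for control, L(3)mbt KD and Lint-O KD. Points are libraries and bars the mean and SD of 3 libraries, and the mean ratio of *del* to *cuff* is 7.28 in control, 3.21 in L(3)mbt KD and 3.47 in Lint-O KD.

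Of the 4 nuage genes, *tud* changed. It encodes Tudor, the founding protein of the Tudor domain family, which binds methylated Aub in the germ plasm. It was at 179, 151 and 167 CPM in control replicates 1 to 3, at 130.4, 148 and 127 CPM after L(3)mbt KD and at 181, 180.1 and 173 CPM after Lint-O KD. All L(3)mbt KD libraries were below all control libraries, although L(3)mbt KD replicate 2 came close to control replicate 2, and the Lint-O KD libraries overlapped with control. It fell by 0.30 ± 0.0696 on the log2 scale in L(3)mbt KD (edgeR adjusted p = 0.00268), and its log2 fold change was 0.10 in Lint-O KD (95% confidence interval from -0.04 to 0.25). The call in L(3)mbt KD was lost without control replicate 1 (-0.26, edgeR adjusted p = 0.0109), without L(3)mbt KD replicate 1 (-0.27, 0.0161) and with library totals alone in place of TMM scaling (-0.24, 0.0129). *tud* in L(3)mbt KD was at 75.8% of its Lint-O KD level, or -0.40 ± 0.0697 on the log2 scale (edgeR adjusted p = 0.000803), the only one of the 9 genes past the threshold there. This direct difference between the knockdowns does not use the control libraries as a term, and it passed in all 15 alternatives, with log2 fold changes from -0.47 to -0.36.

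The other 3 nuage genes passed the threshold in no comparison. *spn-E* encodes Spindle-E, an RNA helicase with a Tudor domain that acts in the ping-pong cycle. It was at 451, 477 and 459 CPM in control, at 503, 485 and 488 CPM after L(3)mbt KD and at 453, 491 and 487 CPM after Lint-O KD. Its L(3)mbt KD libraries were all above control, yet the log2 fold change was only 0.09 (95% confidence interval from -0.02 to 0.20) and in Lint-O KD 0.05 (from -0.06 to 0.15). For *krimp*, the gene of Krimper, a Tudor domain protein that brings AGO3 to the nuage, the levels were 169.7, 191 and 194 CPM in control, at 210.0, 211 and 205 CPM after L(3)mbt KD and at 188, 190.3 and 180.2 CPM after Lint-O KD. The L(3)mbt KD libraries again lay above all others, with a log2 fold change of 0.17 ± 0.0562 against control (edgeR adjusted p = 0.0185). This passed 0.01 only with library totals alone (0.23, edgeR adjusted p = 0.00422) and with the requirement of 10 counts in every library (0.20, 0.0088). In Lint-O KD the log2 fold change of *krimp* was 0.01 (95% confidence interval from -0.11 to 0.13). *squ*, which encodes the nuage protein Squash, was at 42.2, 41.7 and 40.7 CPM in control, at 41.5, 46.0 and 35.5 CPM after L(3)mbt KD and at 37.0, 34.1 and 35.7 CPM after Lint-O KD. Its L(3)mbt KD libraries spread over the whole range, and its Lint-O KD libraries lay below control with a log2 fold change of -0.22 (95% confidence interval from -0.40 to -0.04, edgeR adjusted p = 0.0512).

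Of the pair of genes for arginine methylation, *csul* fell in L(3)mbt KD and *vls* did not pass the threshold. *csul* encodes the methyltransferase Capsuléen (PRMT5), which makes symmetric dimethylarginine on PIWI proteins and on Sm proteins of the spliceosome. It was at 58.4, 58.4 and 67.9 CPM in control, at 53.1, 50.9 and 48.6 CPM after L(3)mbt KD and at 58.1, 58.3 and 55.5 CPM after Lint-O KD. All L(3)mbt KD libraries were below all others, and control replicate 3 stood above the other control libraries. Its log2 fold change was -0.28 ± 0.0678 in L(3)mbt KD (edgeR adjusted p = 0.00333) and -0.10 in Lint-O KD (95% confidence interval from -0.25 to 0.04). The call in L(3)mbt KD was lost without L(3)mbt KD replicate 2 (-0.28, edgeR adjusted p = 0.0101) and with library totals alone (-0.22, 0.0139). The difference between the knockdowns was -0.17 (95% confidence interval from -0.32 to -0.03, edgeR adjusted p = 0.0757) and did not pass. *vls* encodes Valois, the WD-repeat cofactor of Csul. It was at 67.3, 68.2 and 73.9 CPM in control, at 75.6, 75.0 and 82.9 CPM after L(3)mbt KD and at 74.9, 71.4 and 74.3 CPM after Lint-O KD. Its L(3)mbt KD libraries were all above control, while the Lint-O KD libraries overlapped with control. The log2 fold change was 0.16 ± 0.0596 in L(3)mbt KD (edgeR adjusted p = 0.0405), past 0.01 only with library totals alone (0.21, 0.0064), and 0.07 in Lint-O KD (95% confidence interval from -0.05 to 0.20). The ratio of *vls* to *csul* was 1.67 to 1.79 in control, 2.19 to 2.62 after L(3)mbt KD and 1.88 to 2.06 after Lint-O KD, without overlap between any of the conditions.

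The 9 genes were set beside 15 other piRNA pathway genes, referred to as the nuage and ping-pong list. This list was chosen with results of these data known. Of these 15, 8 were upregulated and 2 downregulated in L(3)mbt KD (22.1% and 14.9% of all genes), and 8 were upregulated and 0 downregulated in Lint-O KD (16.1% and 6.85% of all genes). For that 0 of edgeR, DESeq2 gave 1 and an unadjusted p under 0.05 gave 1. The median log2 fold change of the list was 0.23 and 0.21. The largest changes were those of *vas*, *tej*, *aub* and CG9925, which lay lower in control OSCs than all 9 genes described here. *vas*, the RNA helicase gene used as the standard germ cell marker, was at 1.55 RPKM in control, 163 in L(3)mbt KD and 79.6 in Lint-O KD, with 24.6% of its exons shared with another gene on the same strand. *tej*, a Tudor domain gene, was at 0.766, 18.2 and 7.26 RPKM, and *aub*, a PIWI gene of the ping-pong cycle, at 3.61, 34.2 and 33.5 RPKM in the same order. CG9925 had at most 2 counts in any control library, 52 to 102 after L(3)mbt KD and 9 to 14 after Lint-O KD. The lowest of the 9 genes in control, *rhi* at 6.63 RPKM, was above each of these. They were picked by the size of their change, which is taken relative to the control level. Not every upregulated gene of the list lay below *rhi* in control.

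**Figure D4:**
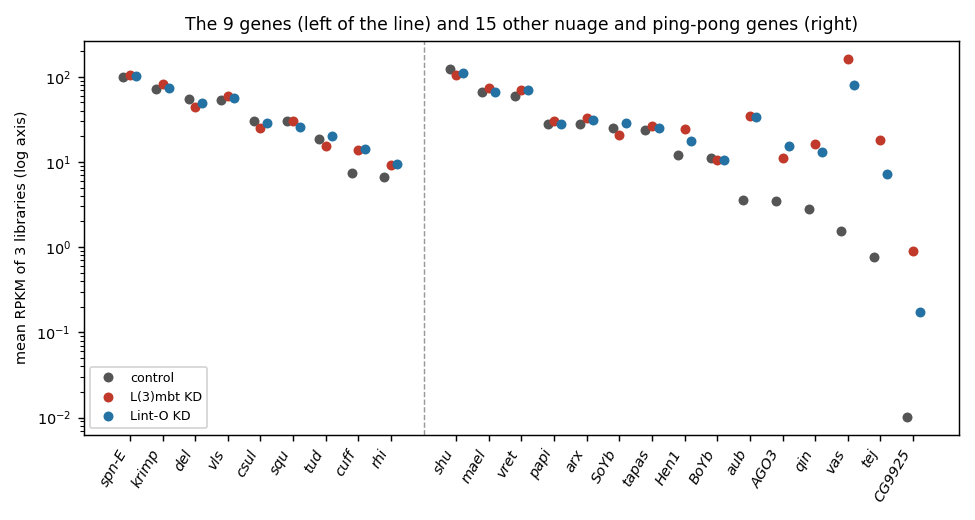
Mean RPKM of 3 libraries on a log axis, with 1 point per condition. The 9 genes are left of the dashed line and the 15 genes of the nuage and ping-pong list right of it. Each group is ordered by its control level. *vas* lies at 1.55 RPKM in control and 163 in L(3)mbt KD, while the 9 genes stay between 6.63 and 105 RPKM in every condition.

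Of 10 genes whose products work with the Rhino complex in cluster transcription and export, 2 were upregulated and 0 downregulated in L(3)mbt KD, where 22.1% and 14.9% of all genes were. DESeq2 also gave 0 downregulated, and 3 were lower at an unadjusted p under 0.05. In Lint-O KD, 2 were upregulated and 1 downregulated, beside 16.1% and 6.85% of all genes. *boot* (listed as CG13741), which encodes Bootlegger, a factor in the export of cluster transcripts, rose from a control level of 1.17 CPM to 15.3 CPM (L(3)mbt KD) and 4.65 CPM (Lint-O KD), with 20.1% of its exons shared with a gene on the same strand. *TfIIA-S-2*, a germline TFIIA subunit that works with Moonshiner, rose from 0.881 to 2.31 CPM in L(3)mbt KD (log2 fold change 1.39) and was at 0.922 CPM in Lint-O KD. *moon* (listed as CG12721), which encodes Moonshiner, the partner of Deadlock that starts cluster transcription, fell from 3.17 to 1.56 CPM in Lint-O KD (log2 fold change -1.02, edgeR adjusted p = 0.00213) and was at 2.10 CPM in L(3)mbt KD (adjusted p = 0.022). *nxf3*, the export receptor of cluster transcripts, rose from 34.3 to 42.9 CPM in Lint-O KD (log2 fold change 0.32), with 59.9% of its exons shared with a gene on the same strand.

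Of 12 other genes of arginine methylation and its Sm substrates, 9 were tested, as *Art2*, *Art6* and *Art9* had 3 counts or fewer in every library. Of these 9, 3 were downregulated and 0 upregulated in L(3)mbt KD, and in Lint-O KD 1 was downregulated and 0 upregulated. DESeq2 gave 3 and 4 downregulated and an unadjusted p under 0.05 gave 6 and 6, with 0 upregulated by either. By edgeR at the threshold, 14.9% and 6.85% of all genes were downregulated and 22.1% and 16.1% upregulated. These shares are a background for the edgeR counts only. No share of all genes is given for DESeq2 or the unadjusted p, so those counts are not set against a background. Among those of L(3)mbt KD, the Sm protein genes *SmB* and *SmD1* fell by 0.33 and 0.22 on the log2 scale, and the methyltransferase gene *Art8* fell by 0.30, with 89.0% of its exon bases shared with a gene on the opposite strand. In Lint-O KD, *SmD1* fell by 0.29. Of 11 piRNA genes of somatic cells, 1 rose and 1 fell in each knockdown. Among all genes tested, 22.1% rose and 14.9% fell after L(3)mbt depletion, against 16.1% and 6.85% after Lint-O depletion. Counts of 1 are too small to be told apart from these shares in either direction. *nxf2*, a nuclear RNA export factor paralog in Piwi silencing, rose by a log2 fold change of 0.39 in L(3)mbt KD and 0.30 in Lint-O KD, and its partner *Panx* (listed as CG9754) fell by 0.42 and 0.28.

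The 9 genes lie at the following places in dm6. *spn-E* spans bases 15837419 to 15844415 of chromosome 3R, *squ* 16680054 to 16681653, *del* 21145137 to 21148546 and *vls* 20064261 to 20065679 of 2L. On 2R, *cuff* spans 11886067 to 11887603, *krimp* 16238103 to 16240722, *csul* 16264652 to 16266959, *rhi* 17628491 to 17633516 and *tud* 21183322 to 21192913. The largest overlap with another gene was that of *squ*, which shares 223 exon bases, 16.3% of its exons, with *grp* on the same strand. *vls* shares 121 (9.24%) with *lok*, *cuff* 36 (2.78%) with *ERp60* and *del* 10 (0.304%) with *pths*, all on the opposite strand, and the strand setting of the counting is not given in the sources used here. *ERp60* was at 1119 CPM in control and passed the threshold in neither knockdown, with log2 fold changes of 0.02 and -0.10, while *cuff* rose. *grp* did not pass in either knockdown (0.13 and 0.0043). *pths* (listed as CG9253) fell in both (by 0.36 and 0.32 on the log2 scale, first in L(3)mbt KD and then in Lint-O KD) and *lok* rose in L(3)mbt KD (0.21).

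Starts of 4 of the 9 genes lie within 1000 bases of the start of a gene transcribed the other way. The start of *cuff* is 482 bases from that of CG13185, and in L(3)mbt KD CG13185 fell by 0.40 on the log2 scale (edgeR adjusted p = 0.000775) where *cuff* rose, and in Lint-O KD it was at 0.09 (adjusted p = 0.426). The start of *vls* is 712 bases from that of *bwa*, a ceramidase gene, which rose in both knockdowns (0.81 and 0.55), where *vls* did not pass. The start of *csul* is 33 bases from that of *fidipidine*, which did not pass in either knockdown (0.01 and -0.16). The start of *spn-E* is 302 bases from that of *ND-23*, a gene of respiratory complex I, which did not pass either (-0.20 and -0.12). CG10936, whose span overlaps that of *rhi* on the same strand without a shared exon base, rose in Lint-O KD (0.68, edgeR adjusted p = 0.00547), as *rhi* did, and was at 0.30 in L(3)mbt KD (adjusted p = 0.15).

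For the 3 genes called in L(3)mbt KD with the largest changes, the genes with the most similar pattern were sought among all genes tested, by the root mean square difference of log2(CPM + 1) relative to the control mean over the 6 knockdown libraries. Nearest to *cuff* were CG13397 (0.0554), CG9518 (0.069) and CG9919 (0.0834). Nearest to *rhi* were *mtg* (0.0636), *iav* (0.0672) and *cdc14* (0.0795). Nearest to *tud* were CG11970 (0.045), CG31635 (0.0484) and CG9425 (0.0623). None of the other genes of the set was among these.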

How the data were processed

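RNA-seq of 9 OSC libraries, 3 each of control, L(3)mbt KD and Lint-O KD, was analysed. The values deposited by the authors are raw counts of reads per gene. Per the labels and the methods of the study, libraries were poly-A selected and stranded, rRNA reads were excluded, reads were mapped to dm6 with HISAT2, and HTSeq is named in the submitters' processing notes. The annotation and strand setting of the counting are not given in the sources used here. Conditions and replicate numbers were taken from the labels.

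The fits used edgeR 4.0.16 in R 4.3.3 (filterByExpr, TMM, glmQLFit and glmQLFTest on all 9 libraries, FDR 0.01, the threshold of the study, which used DESeq2). CPM are TMM-scaled. RPKM were computed from the counts with the union of exons of Ensembl release 115, to which 16572 of 16727 genes (99.1%) were matched, 4061 by an older symbol or synonym. Reads assigned to no feature or ambiguous between genes (1.47% to 1.61% of the reads listed) were left out of the totals. The fits were tested on simulated data. Every pair of replicates differed by more than counting noise.

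All 9 genes are named. Genes of the 4 other pathway lists are named where they passed the threshold with no overlap of the libraries, at most 4 per list and comparison against control. Marker genes past the threshold against control are named too, as are the tested germ cell markers that did not pass. The 9 genes and the lists were chosen with earlier results of these data known. The alternatives were DESeq2 1.42.0, its size factors used in edgeR, scaling by totals only, no filter, 10 counts in every library, only the libraries compared, the replicate block, the share of reads assigned to no feature as a covariate, an FDR of 0.05, transcript length in place of exon length, each library left out in turn and, added after seeing the data, edgeR with robust estimation. For the 6 ChIP-seq and input samples no data were analysed here.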

Additional observations from a re-analysis of the deposited data

How the results depend on the processing

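Of the alternatives listed under the processing, library totals alone moved the calls of the 9 genes most: in L(3)mbt KD against control 4 were upregulated and 0 downregulated, as *krimp* and *vls* passed and *tud* and *csul* no longer did. Over all genes, library totals gave 2181 upregulated and 868 downregulated in L(3)mbt KD, against 1930 and 1299 with TMM. Library totals shifted the median of all genes by at most 0.06 on the log2 scale. They also moved *krimp* in L(3)mbt KD to 83.4 RPKM and *squ* in control to 29.7 RPKM. With the no-feature share as a covariate, 1 of the 9 was upregulated. At an FDR of 0.05, 4 of the 9 were upregulated in L(3)mbt KD, and *del* joined *tud* and *csul* among the downregulated. The share of all genes upregulated at 0.05 is not given here. At this FDR, 1 of the 9 was higher in L(3)mbt KD than in Lint-O KD. Over all genes, an FDR of 0.05 gave 2043 downregulated in L(3)mbt KD and 1153 in Lint-O KD. In L(3)mbt KD against Lint-O KD it gave 1214 higher and 1029 lower. Without a filter, 828 genes were lower in that comparison.

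With each library left out in turn, 1 to 2 of the 9 were upregulated and 1 to 2 downregulated in L(3)mbt KD, and 1 to 2 upregulated in Lint-O KD. Over all genes, 313 to 626 were downregulated in Lint-O KD, lowest without Lint-O KD replicate 2. In L(3)mbt KD against Lint-O KD, 481 to 643 were higher and 241 to 407 lower, the lowest without Lint-O KD replicate 2 and L(3)mbt KD replicate 1, respectively.

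Sign changes were seen only for differences near 0. *squ* in L(3)mbt KD was at 0.036 with library totals, 0.0085 with 10 counts in every library and from -0.11 to 0.052 with a library left out, above 0 without L(3)mbt KD replicate 3. *krimp* in Lint-O KD was at -0.0019 with DESeq2, -0.016 without a filter and from -0.068 to 0.034 with a library left out, below 0 without control replicate 1 or Lint-O KD replicate 2. Between the knockdowns, *rhi* ranged from -0.13 to 0.067 and *cuff* from -0.073 to 0.030 with a library left out, above 0 without L(3)mbt KD replicate 3 or Lint-O KD replicate 2. The cause was not tested.

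Replicate numbers did not pair the libraries (correlations of deviations from -0.2 to 0.148). With the replicate block, *del* passed in L(3)mbt KD (-0.29, edgeR adjusted p = 0.00587), and it changed no other call of the 9 genes. All 9 genes had at least 184 counts in every library.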
